A study of Homo sapiens with 14 samples.

Results

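The G1 cyclin-dependent kinases CDK4, CDK6 and CDK2, the D-type cyclins CCND1, CCND2 and CCND3, and their substrate RB1 were followed in HepG2 cells for 120 h after transfection with miR-124. Members were all probe sets whose symbol in the platform annotation was one of these 7 genes. That gave 21 of the 54675 probe sets on the array, for 7 of 19775 genes. CDK4 messenger RNA was 1.34-fold lower with miR-124 at 4 h, 2.35-fold lower at 8 h and 6.60-fold lower at 72 h. CDK2 followed with a largest difference of 4.72-fold at 72 h. CDK6 stood at the control level at 4 h and reached its largest difference, 2.10-fold lower, at 32 h. No D cyclin passed the test as lower. CCND3 was higher in the late arrays, by 1.42-fold on average over 72 and 120 h, a call lost when those arrays were fitted alone. No gene passed the test over 4 and 8 h, so the CDK4 folds there describe single pairs.

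In G1, D-type cyclins bind and activate CDK4 and CDK6, and these kinases begin to phosphorylate the retinoblastoma protein, the product of RB1. CDK2, with cyclin E and then cyclin A, completes that phosphorylation, which frees E2F transcription factors to drive the genes of DNA replication. miR-124 is a microRNA abundant in neurons, and CDK6 has been reported as one of its targets in other cell types.

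HepG2 is an established human cell line from a liver tumour. The samples were 14 one-colour arrays of total RNA from HepG2. In 7 of them the cells had received miR-124 and in 7 a negative control, with 1 array of each transfection at 4, 8, 16, 24, 32, 72 and 120 h. Neither the dose nor the identity of the control RNA was stated in the labels. Nothing in the labels says that the arrays came from separate cultures, so each p-value covers the spread among these arrays and no more. With 1 pair per time, the spread in the fits over pairs and windows is how far a ratio varied between times. A ratio that changes with time widens its error there, and technical spread cannot be told apart from it. In such bulk RNA, fewer cells carrying a transcript and less of it per cell cannot be told apart. Levels are log2 values as deposited, 1 per probe set and array, and a ratio is the miR-124 value minus the control value of the same time.

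The 7 genes were all among the 13137 genes tested, which are those with a mean over 6.19, the median over probe sets. For each gene the probe set with the highest mean stood for it. Arrays correlated with each other at 0.904 to 0.997. The 4 h array with miR-124 had a mean 18S ribosomal RNA signal of 11.1 against 8.70 in its control partner. The 3′ minus 5′ probe set signal, a measure of RNA quality, was larger with miR-124 in 7 of 7 pairs for ACTB and in 6 of 7 for GAPDH. For ACTB it was 0.56 against 0.27 in the 24 h pair, 0.42 against 0.28 in the 32 h pair, 0.36 against 0.24 in the 72 h pair and 0.41 against 0.10 in the 120 h pair. The part of these differences in the results was not tested. All 8 hepatocyte markers were above the median of all probe sets, at percentiles 97.3 to 100 of the probe set means, which is the identity the label gives. Of the blood cell markers, 3 of the 6 with a probe set lay above that median. Their mean level ran from 6.27 to 6.67 with miR-124 and from 6.17 to 6.36 in the control, and CD3D, a T cell receptor subunit, was 1.44 ± 0.25 higher late (limma adjusted p = 0.00466). Of the 10 fibroblast and endothelial markers, 7 lay above the median, with a mean level of 6.63 to 6.80 against 6.52 to 6.69. ACTA2, smooth muscle actin, was 1.07 ± 0.17 higher late (limma adjusted p = 0.00285), and PECAM1, an endothelial adhesion protein, 0.46 ± 0.11 (adjusted p = 0.0189). FGB, a fibrinogen chain made by hepatocytes, was at -0.46 ± 0.09 late (limma adjusted p = 0.00752). The part of these markers in the results was not tested. Without the 72 h pair FGB and PECAM1 were not called (0.0501 and 0.147), and CD3D was 0.83 without the 72 h pair and 2.05 without the 120 h pair. None of these 4 late marker calls was made by limma on the late arrays alone (adjusted p = 0.0541 to 0.187).

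CDK4 and CDK6 encode closely related kinases that bind the same cyclins, and their ratios differed at 4 and 8 h. Their promoters are shown as sequence only. Whether they bear on that difference was not tested. Each is the 250 bases before a RefSeq start (GRCh38.p14), read 5′ to 3′ on the gene's strand, with CACGTG in capitals. CACGTG is the palindromic E-box bound by basic helix-loop-helix factors, and it reads the same on both strands.
CDK4, chr12:57752311-57752560, minus strand: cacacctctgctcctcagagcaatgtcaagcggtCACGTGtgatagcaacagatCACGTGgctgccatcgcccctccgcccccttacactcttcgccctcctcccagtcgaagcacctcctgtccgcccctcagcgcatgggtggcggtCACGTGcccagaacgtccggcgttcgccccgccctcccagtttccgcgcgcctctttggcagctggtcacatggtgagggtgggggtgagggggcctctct
CDK6, chr7:92836574-92836823, minus strand: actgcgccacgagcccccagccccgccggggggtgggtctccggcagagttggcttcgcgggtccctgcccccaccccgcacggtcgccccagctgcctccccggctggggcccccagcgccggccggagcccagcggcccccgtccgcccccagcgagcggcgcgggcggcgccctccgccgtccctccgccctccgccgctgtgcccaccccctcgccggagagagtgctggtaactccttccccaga
CDK6, chr7:92833960-92834209, minus strand: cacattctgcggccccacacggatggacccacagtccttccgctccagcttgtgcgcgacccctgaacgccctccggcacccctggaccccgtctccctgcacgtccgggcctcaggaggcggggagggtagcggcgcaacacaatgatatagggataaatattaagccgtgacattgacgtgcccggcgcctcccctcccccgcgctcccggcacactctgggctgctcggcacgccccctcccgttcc
The CDK4 promoter held 3 copies of CACGTG, and neither CDK6 promoter held 1. Among the 35116 promoters of the same length in the table, 6.34% held at least 1 copy and 28, or 0.0797%, held 3 or more. The E2F motif, searched as TTTCCCGC, TTTCGCGC, TTTGGCGC and TTTGCCGC on both strands, was in 0 of the 7 promoters of 4 member genes and in 2.79% of the promoters in the table. Those promoters were of CDK4, CDK6, CCND3 and RB1, and none was available for CDK2, CCND1 or CCND2. The RB1 sequence was chr13:48476200-48476449, at 36.8% GC, against 61.2% to 80% in the other member promoters. No other RB1 start was searched, so the count says nothing of the E2F motif at other RB1 starts. The motif matches are letters in a window of sequence. No binding was measured in these samples.

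CDK4, the kinase of the cyclin D complexes, was lower with miR-124 in all 7 pairs. In the control its level ran from 10.65 at 120 h to 11.06 at 24 h, with a median of 10.99. With miR-124 the 7 arrays, in order from 4 to 120 h, read 10.57, 9.65, 9.01, 8.70, 8.40, 8.32 and 9.69. All 7 miR-124 arrays lay below all 7 control arrays, which held for 0.617% of the genes tested. The CDK4 ratio was below 0 at every time, as it was for 4.8% of genes. No member had a ratio above 0 throughout, as 4.19% of genes had. In time order the 7 ratios were -0.42, -1.23, -2.01, -2.36, -2.59, -2.72 and -0.96. The fold difference went from 1.34 in the 4 h pair to 6.60 in the 72 h pair and was 1.94 at 120 h, where the control array was also at its lowest.

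Among all genes, CDK4 took its most extreme place at 8 h. At 4 h, 187 of 13137 genes, CDK4 included, had a ratio as low or lower. At 8 h it was 2 of 13137, and CDK4 was 1 of 8 genes, 0.0609% of those tested, at least 2-fold lower. In the 5 pairs that followed, 5, 11, 8, 28 and 182 genes stood as low. The spread of ratios over all genes had an SD of 0.15 over genes in the 4 and 8 h pairs, 0.34 in the 32 h pair and 0.61 in the 72 h pair. These ranks are descriptions of single pairs, with no test.

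CDK2, the kinase of the cyclin E and cyclin A complexes, went the same way with smaller differences. In the control its level went from 9.32 at 4 h to 8.84 at 120 h, and its median was 9.12. The miR-124 arrays, from 4 to 120 h, read 9.07, 8.59, 7.95, 7.38, 7.24, 6.67 and 7.86. The 4 h array with miR-124 lay within the control range. Ratios ran, in time order, -0.25, -0.54, -1.17, -1.81, -1.78, -2.24 and -0.97. At 8 h, 62 of 13137 genes had a ratio as low as that of CDK2, and at 24 h 27 had.

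CDK6, the other partner of the D cyclins, was near its control in the first 2 pairs on the probe set used. At 8 h CDK6 was lower on some other probe sets, given below. Its control level ran from 10.10 at 24 h to 10.89 at 8 h, with a median of 10.25. With miR-124 it was 10.74 at 4 h and 10.77 at 8 h, within the control range, and from 9.23 to 9.65 at the other 5 times. The CDK6 ratio was 0.0006 in the 4 h pair and -0.12 in the 8 h pair. It was then -0.60, -0.84, -1.07, -0.91 and -0.67 from 16 to 120 h. At 8 h 1873 of 13137 genes had a ratio as low, and at 32 h 213 had.

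**Figure D1:**
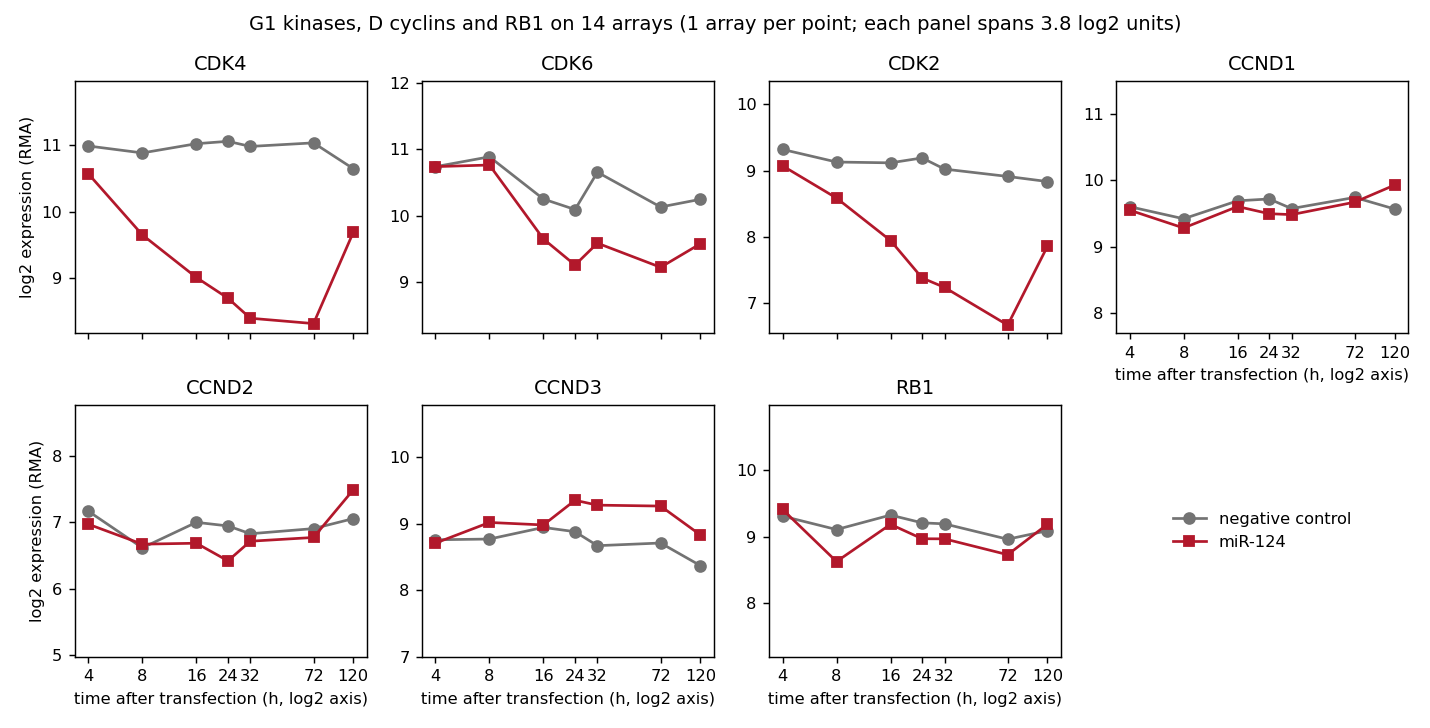
Log2 level of each of the 7 genes against hours after transfection (log2 axis), 1 point per array, squares for miR-124 and circles for the negative control, in panels of equal height. CDK4 with miR-124 drops from 10.57 at 4 h to 8.32 at 72 h while its control stays between 10.65 and 11.06. The 2 lines of CCND1, CCND2, CCND3 and RB1 cross.

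Among the D cyclins, which carry the mitogen signal to CDK4 and CDK6, CCND1 differed least. Its level ran from 9.28 to 9.93 with miR-124 (median 9.55) and from 9.42 to 9.74 in the control (median 9.61). The arms overlapped. The ratio lay between -0.22 and -0.05 from 4 to 72 h and was 0.36 at 120 h.

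CCND2 was expressed close to the limit of the genes tested, from 6.42 to 7.49 with miR-124 (median 6.71) and from 6.61 to 7.16 in the control (median 6.94). These arms also overlapped. From 4 to 120 h the CCND2 ratios were -0.20, 0.06, -0.31, -0.53, -0.11, -0.13 and 0.43. They were below 0 at 5 of 7 times and went both ways.

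CCND3 was the member whose values were mostly higher. With miR-124 it ran from 8.71 to 9.35 (median 9.02) and in the control from 8.37 to 8.94 (median 8.76). The CCND3 ratios, in time order, were -0.05, 0.25, 0.04, 0.47, 0.61, 0.56 and 0.46. The difference at 32 h was 1.53-fold. The 3 D cyclins thus held different values over the same arrays, near the control for CCND1, on either side of it for CCND2 and above it from 24 h on for CCND3.

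RB1, the substrate, lay from 8.63 to 9.41 with miR-124 (median 8.97) and from 8.96 to 9.33 in the control (median 9.19), with overlap. Its 7 ratios from 4 to 120 h were 0.10, -0.48, -0.14, -0.24, -0.23, -0.23 and 0.10. The value at 8 h, with 94 of 13137 genes as low, was the farthest from 0 in the course.

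Differences of at least 2-fold were read at each time as a size, with no test. At 4 h no member and 0% of genes were that much lower. At 16 and 24 h CDK4 and CDK2 were, against 0.495% and 1.44% of genes. At 32 h CDK6 joined them, against 1.87% of genes. At 72 h CDK4 and CDK2 were that much lower, against 5.92% of genes, and at 120 h no member was, against 1.16%.

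**Figure D2:**
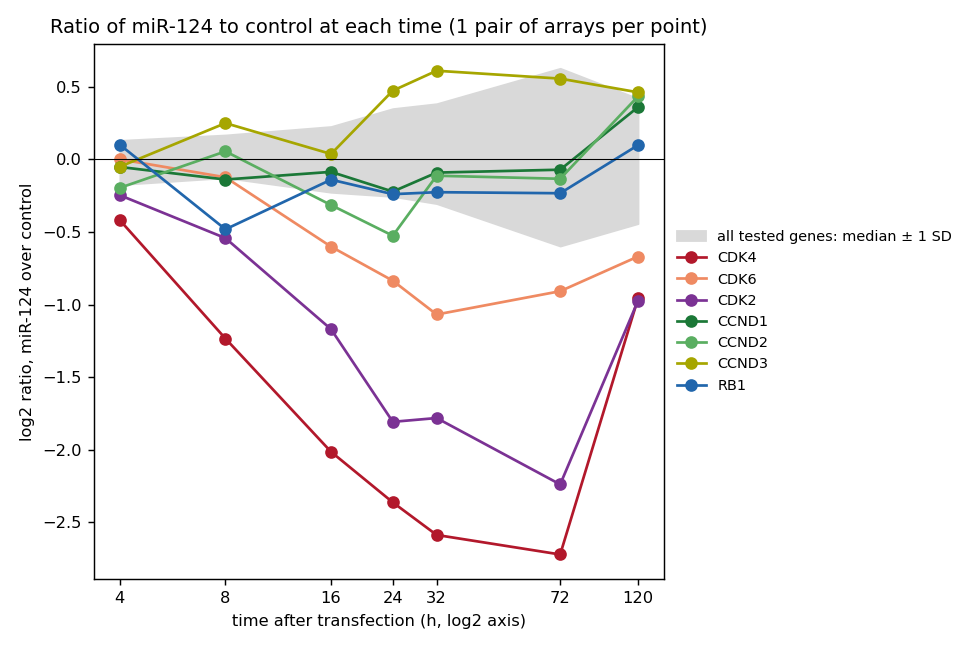
Log2 ratio of miR-124 over control for the 7 genes against hours after transfection (log2 axis), 1 pair of arrays per point, with the median ± 1 SD of all 13137 tested genes in grey. The CDK4 line lies below that of CDK2 from 4 to 72 h and meets it at 120 h (-0.96 and -0.97), CDK6 leaves 0 after 8 h, and CCND3 is at 0.47 or higher at 24, 32 and 72 h.

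The ratio of CDK4 was set against the ratio of each other member at the same times, early and later. The comparison was chosen with the profile of CDK4 known, so its tests are no independent evidence. The CDK4 ratio minus the CDK6 ratio was -0.42 at 4 h and -1.11 at 8 h. Over the 7 times CDK4 lay lower than CDK6 in 7, by a mean of -1.16 with an SD of 0.587 over times (exact two-sided sign-flip permutation test, p = 0.015625, 0.01875 after adjustment over 6 gene pairs). That p is the smallest that 7 times allow. The test is of the mean over all 7 times and does not test the 4 and 8 h pairs by themselves.

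Against CDK2 the distance was smaller. The CDK4 ratio minus the CDK2 ratio was, in time order, -0.17, -0.69, -0.84, -0.55, -0.81, -0.48 and 0.02. CDK4 was lower at 6 of 7 times, by a mean of -0.51 with an SD of 0.323 over times (exact two-sided sign-flip permutation test, p = 0.03125, adjusted p = 0.03125). The call was lost when any 1 of the pairs from 4 to 72 h was left out, with an adjusted p of 0.0625. Over the 7 pairs left out in turn, the mean difference ran from -0.59 to -0.45, and with the mean of each gene's probe sets it was -0.93 (0.015625).

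Against the cyclins and RB1, CDK4 lay lower at all 7 times. The mean differences were -1.71 for CCND1, -1.64 for CCND2, -2.09 for CCND3 and -1.60 for RB1. Each had p = 0.015625 in the exact two-sided sign-flip permutation test, 0.01875 after adjustment over the 6 gene pairs. At 8 h the differences were -1.10, -1.29, -1.48 and -0.75 for the same genes in that order. RB1 was thus nearest to CDK4 among these at 8 h. The tests treat 7 successive times as separate, and the same pair of arrays gives both genes of each difference.

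Effects over windows of time were tested with limma across all 13137 genes. In the early window (4 and 8 h) none of the 7 members was called, and 0% of all genes were, while 163 genes had an unadjusted p under 0.05. CDK4 had the lowest early value of the members, -0.83 ± 0.37 (SE), with an unadjusted p of 0.0555 and an adjusted p of 1 in limma. CDK2 stood at -0.39 ± 0.27, RB1 at -0.19 ± 0.14, CDK6 at -0.06 ± 0.12 and CCND3 at 0.10 ± 0.14. The shared fit takes the spread from all 7 pairs. Fitted on the early arrays alone, limma gave CDK4 an SE of 0.18 and an unadjusted p of 0.00198, with an adjusted p of 1, and CDK2 an unadjusted p of 0.00626. Without the 4 h pair the early CDK4 value was the 8 h ratio, -1.23, with an adjusted p of 1.

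In the middle window (16, 24 and 32 h) the 3 kinases were lower and no cyclin was called. Called were 3 of 7 members against 7.83% of all genes tested, and the 3 were lower against 4.36% of genes lower, while 3.46% were higher. CDK4 was -2.32 ± 0.30 (limma adjusted p = 0.00639), with ratios of -2.01, -2.36 and -2.59. CDK2 was -1.59 ± 0.22 (adjusted p = 0.00798), and CDK6 -0.84 ± 0.10 or 1.78-fold lower (adjusted p = 0.00537). The median of the 7 members was -0.32 and that of all genes tested 0.03. CCND3 at 0.37 ± 0.12 (adjusted p = 0.103), CCND2 at -0.32 ± 0.12 (0.192), RB1 at -0.20 ± 0.12 (0.405) and CCND1 at -0.13 ± 0.09 (0.503) did not pass. The 3 calls were lost in limma without the 24 h pair, at adjusted p = 0.0909 for CDK4, 0.0909 for CDK6 and 0.11 for CDK2, and without the 32 h pair, at 0.0791, 0.0735 and 0.0968. CCND2 passed without the 72 h or the 120 h pair (adjusted p = 0.0435) and on the middle arrays alone (0.045), and CCND3 without the 16 h pair, at 0.54 (0.0386).

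In the late window (72 and 120 h) 3 kinases were lower and 1 cyclin higher. Late, 29.1% of all genes were called, 12.6% lower and 16.4% higher. CDK4 was -1.84 ± 0.37 or 3.58-fold lower (limma adjusted p = 0.00805), and its 2 ratios were -2.72 and -0.96. CDK2 was -1.61 ± 0.27 or 3.05-fold lower (adjusted p = 0.00422), from -2.24 and -0.97. CDK6 was -0.79 ± 0.12 or 1.73-fold lower (adjusted p = 0.00279), from -0.91 and -0.67. CCND3 was 0.51 ± 0.14 or 1.42-fold higher (limma adjusted p = 0.0302). CCND1 at 0.14 ± 0.11 (adjusted p = 0.39), CCND2 at 0.15 ± 0.15 (0.521) and RB1 at -0.07 ± 0.14 (0.773) did not pass. The median of the members was -0.07 and that of all genes -0.01.

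The late calls rested on the spread of the whole course. Fitted on the 4 late arrays alone, none of the 4 was called, at adjusted p = 0.0719 for CDK4, 0.0609 for CDK6, 0.0584 for CDK2 and 0.122 for CCND3 in limma. CCND3 also lost its call without the 120 h pair (0.0509), the 72 h pair (0.12) or the 24 h pair (0.0575). CDK4 and CDK2 were called with either late pair left out, but the value moved with it. Without the 120 h pair it was -2.72 for CDK4 and -2.24 for CDK2, and without the 72 h pair -0.96 and -0.97. CCND1 was called without the 72 h pair, at 0.36 (adjusted p = 0.0441).

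**Figure D3:**
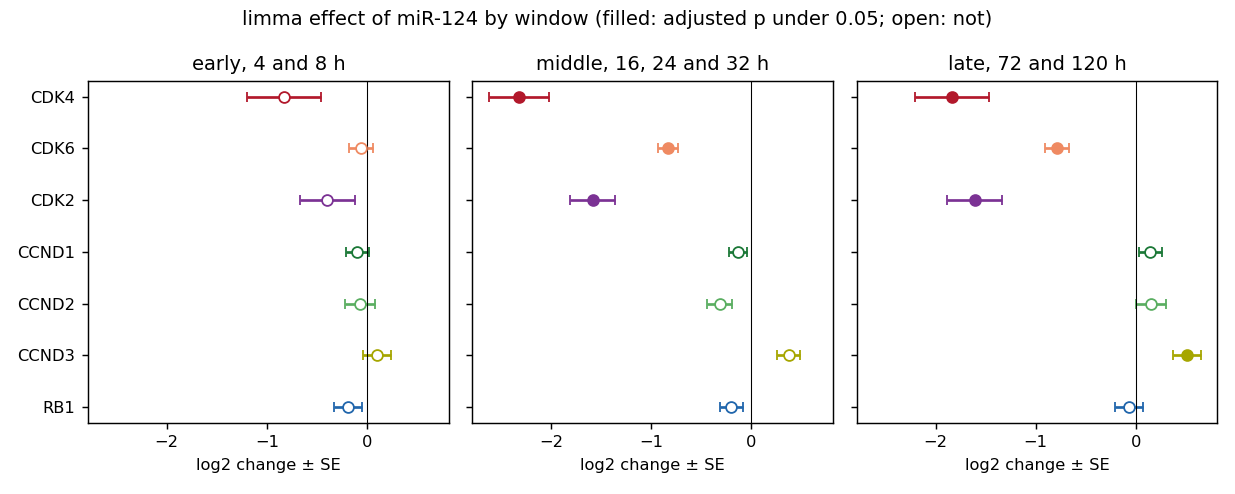
limma effect of miR-124 on each of the 7 genes (log2 change, bars ± SE) in the early, middle and late windows, filled where the adjusted p is under 0.05. The kinases are filled in the middle and late panels, from -2.32 for CDK4 in the middle to -0.79 for CDK6 late, CCND3 is filled late at 0.51, and every early point is open.

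Over all 7 pairs, CDK4 was lower by a log2 value of -1.76 ± 0.28 or 3.38-fold, and CDK2 by -1.25 ± 0.23 or 2.38-fold. Both had a limma adjusted p of 0.0499. Called in that fit were 0.913% of genes, 0.784% lower. CDK6 at -0.60 ± 0.13 (adjusted p = 0.0602) and CCND3 at 0.33 ± 0.09 (0.0761) did not pass, nor did RB1 at -0.16 ± 0.07 (0.209), CCND2 at -0.11 ± 0.10 (0.512) or CCND1 at -0.04 ± 0.07 (0.739). The calls of CDK4 and CDK2 lay at the threshold. They were lost with each array centred on its median (0.0513), with the mean of a gene's probe sets (0.0521, CDK2 at -0.83), without the filter on low values (0.0547), and without the pair of 16, 24, 32, 72 or 120 h (0.0908 to 0.203). Without the 4 h pair limma called CDK4 (0.0113), CDK2 (0.0154), CDK6 (-0.70, 0.0206) and CCND3 (0.40, 0.0341), and without the 8 h pair it called CDK6 as well (-0.68, 0.0402).

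Whether an effect differed between windows was tested in the same fit. Late minus early, CDK6 was the 1 member called, at -0.73 ± 0.17 (limma adjusted p = 0.0339), with 11.6% of all genes called, 3.3% lower and 8.28% higher. CDK2 stood at -1.21 ± 0.39 (0.0851) and CDK4 at -1.01 ± 0.52 (0.251), both not called. The CDK6 call was lost without the 4, 8, 24 or 72 h pair (0.185, 0.122, 0.0797 and 0.0668), with the mean of its probe sets (-0.52, 0.0831) and with no replicate block (0.0917). Without the 120 h pair, CDK4 at -1.90 (0.00355) and CDK2 at -1.84 (0.00171) were called. Middle minus early, limma called 0 genes, 0% of those tested, and 1252 had an unadjusted p under 0.05. CDK4 was -1.50 ± 0.48 (0.383), CDK2 -1.19 ± 0.35 (0.358) and CDK6 -0.77 ± 0.16 (0.285). Without the 72 h or the 120 h pair these 3 were called, at adjusted p = 0.0331, 0.0345 and 0.04. Late minus middle, no member was called against 4.75% of genes (1.54% lower and 3.21% higher), and CDK4 was 0.48 ± 0.48 (limma adjusted p = 0.658). Without the 72 h pair that difference was 1.36 for CDK4 (0.0315), 0.75 for CCND2 (0.0387) and 0.49 for CCND1 (0.0464).

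Within each arm the change per doubling of time was fitted over 7 arrays with limma. In the control CDK2 fell by 0.09, a slope of -0.09 ± 0.02 per doubling (adjusted p = 0.034), the 1 member called against 8.18% of genes, 5.48% with a falling slope and 2.7% with a rising one. CDK6 had a control slope of -0.13 ± 0.05 (adjusted p = 0.145) and CDK4 of -0.03 ± 0.03 (0.509). With miR-124, limma called CDK2 at -0.37 ± 0.11 (0.0439) and CDK6 at -0.31 ± 0.08 (0.0338), 2 of 7 members against 21.7% of genes, 8.06% with a falling slope and 13.7% with a rising one. CDK4, which read 9.01 at 16 h and 8.32 at 72 h and was 1.94-fold below its control at 120 h, had a slope of -0.27 ± 0.14 (0.198). The other CDK2 probe set above the median, 211804_s_at, had a control slope of 0.02 ± 0.02 (limma adjusted p = 0.526). The control call of CDK2 was lost without the pair of 4, 8, 16, 72 or 120 h (0.0588 to 0.113) and with the mean of its probe sets (-0.04, 0.153). With miR-124 the CDK6 call was lost without 4, 8, 32 or 72 h (0.052 to 0.155). That of CDK2 was lost without 4, 8, 16, 24, 32 or 72 h (0.0575 to 0.225), without the filter on low values (0.052) and with arrays centred (0.0555).

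CDK4 has 1 probe set on this array, 202246_s_at, so its profile has no second measurement. CDK6 has 7. The 4 that were called in the middle and late windows, with every probe set fitted as a feature of its own, were 224847_at, which stood for the gene, 224848_at, 224851_at and 243000_at. In that limma fit 224848_at was -0.82 ± 0.11 in the middle window (adjusted p = 0.00847), 224851_at -0.84 ± 0.15 (0.0203) and 243000_at -0.73 ± 0.09 (0.00572). Their ratios at 4 h were -0.02, 0.30 and 0.18, and at 8 h -0.23, -0.39 and 0.07, so all 3 were near or above the control at 4 h as 224847_at was. At 8 h 224848_at and 224851_at lay farther below the control than 224847_at, which was at -0.12, and 243000_at did not. The remaining 3 were not called in either window. Of these, 207143_at lay between -0.26 and 0.29, with r = 0.804 to 224847_at over the 7 times. The other 2 had means below the median of all probe sets, 4.93 for 235287_at (r = 0.601, -0.36 in the middle window and -0.40 late) and 5.79 for 231198_at (r = -0.275).

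Of the 3 CDK2 probe sets, 211804_s_at had ratios, in time order, of -0.08, -0.73, -0.74, -1.41, -1.84 and -2.07 up to 72 h. Its ratios correlated with those of 204252_at at r = 0.947 over the 7 times. Its arms did not overlap, with 7.88 at 4 h against a lowest control of 7.95. All miR-124 arrays lay below all control arrays for 0.617% of the genes tested, a share not counted over probe sets. As a feature of its own 211804_s_at was called by limma in the middle window, at -1.33 ± 0.24 (adjusted p = 0.0229), and late, at -1.54 ± 0.29 (0.00837). The third, 211803_at, lay between -0.22 and 0.09 around a mean of 5.36, below the median of all probe sets. With the mean of a gene's probe sets, CDK2 was -0.99 in the middle window (limma adjusted p = 0.0154) and CDK6, with its 7, was -0.53 (0.0222).

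The late CCND3 call rested on 201700_at, with a mean of 8.90. The other CCND3 probe set, 1562028_at, had a mean of 6.85, a late value of 0.12 ± 0.09 (limma adjusted p = 0.492) and ratios that correlated with those of 201700_at at r = -0.546 over 7 times. With the mean of both, CCND3 was 0.31 late (0.0309). The 2 CCND1 probe sets shared the value at 120 h, 0.36 and 0.34, and 208711_s_at was at -0.50 at 32 h where 208712_at was at -0.09. The other 3 CCND2 probe sets correlated with 200953_s_at at -0.696 to -0.0970, and the second of RB1, 211540_s_at, at 0.395 with a mean of 5.62. These correlations share the arrays and are given as a description.

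**Figure D4:**
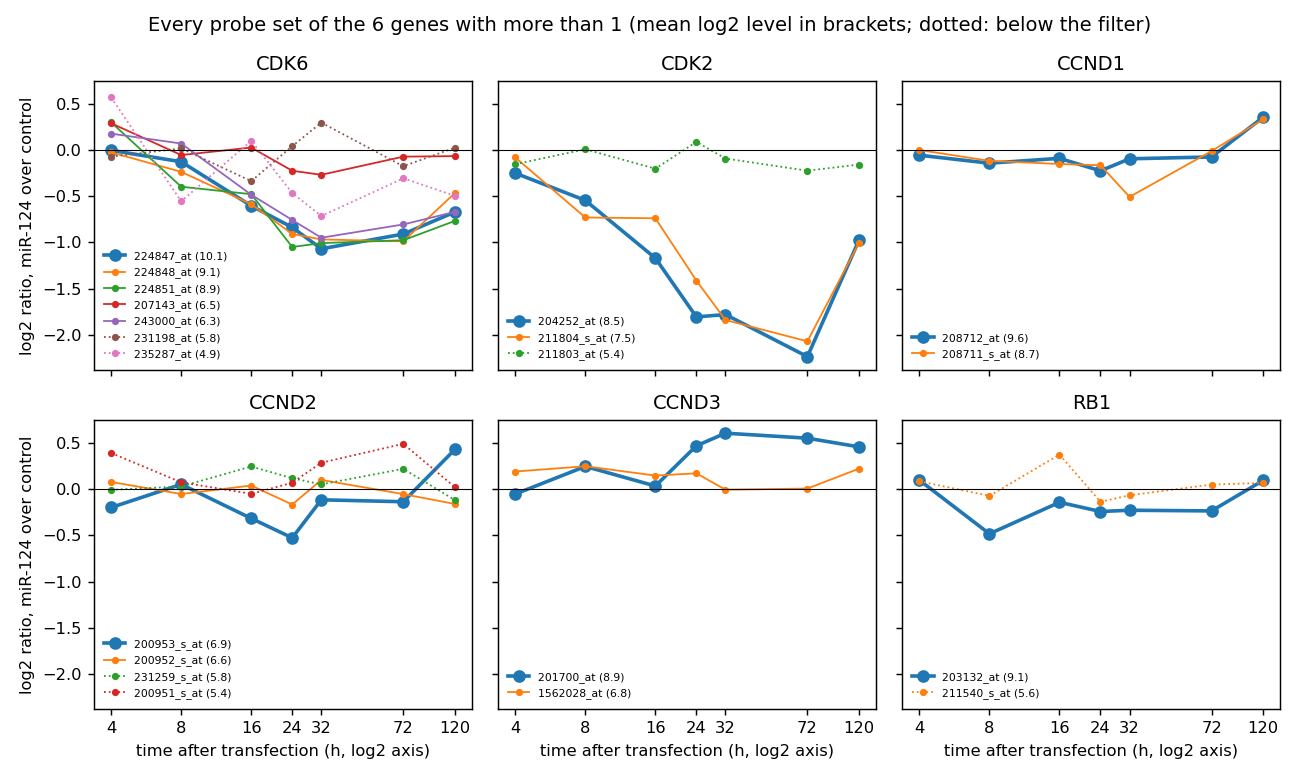
Log2 ratio of miR-124 over control for every probe set of the 6 genes with more than 1, against hours after transfection (log2 axis), with the probe set used in bold and mean log2 level in brackets. Lines of 224847_at, 224848_at, 224851_at and 243000_at of CDK6 run together to between -0.95 and -1.07 at 32 h, as do 204252_at and 211804_s_at of CDK2 to -2.24 and -2.07 at 72 h, while dotted probe sets, with means below 6.19, lie between -0.71 and 0.58.

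The genes with the ratios most like those of CDK4, by root mean square difference over the 7 times, were RWDD4 (0.256, r = 0.969), GPAT3 (0.317, r = 0.967), ACAA2 (0.322, r = 0.971), VAMP3 (0.361, r = 0.960) and CENPQ (0.363, r = 0.917). Their own 8 h ratios were -0.84, -0.78, -1.01, -0.45 and -0.92, all less far from 0 than the -1.23 of CDK4. At 4 h they were -0.11, -0.05, -0.14, -0.07 and -0.41, so CENPQ, a centromere protein, was the one close to CDK4 at that time. GPAT3 makes the glycerolipid precursor lysophosphatidic acid, ACAA2 acts in mitochondrial fatty acid oxidation and VAMP3 in vesicle fusion. For CDK6 the nearest were EEF1AKMT3 (0.0797, r = 0.980), SMYD3 (0.0808, r = 0.987), SOS2 (0.0966, r = 0.987), ACADM (0.0987, r = 0.972) and SLC41A2 (0.0988, r = 0.968). EEF1AKMT3 and SMYD3 are methyltransferases, SOS2 is an exchange factor for Ras, ACADM oxidises fatty acids and SLC41A2 is a magnesium transporter. Differences are in log2 units, and no r has a test.

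The rest of the G1 machinery was read from lists of named genes. Of the 25 genes of these lists and the marker lists that limma called late, 1, CDT1, was also called on the late arrays alone (adjusted p = 0.0493), and the late calls below were otherwise lost there. On those arrays alone 469 of the 13137 genes tested were called, against 3821 late in the shared fit. Without the 72 h pair 14 of the 25 were called, and without the 120 h pair 23. Inhibitors of cyclin-dependent kinases, such as CDKN1A and CDKN1B, had 5 of 7 genes tested and 0 called in the early, middle or late window. Of all genes tested, 0%, 7.83% and 29.1% were called in those windows. The median of the inhibitors was 0.04 in the middle window and -0.06 late. The 3 genes of the chaperone system that folds CDK4, CDC37 and HSP90, were also not called, with medians of 0.03 and 0.10. All genes tested had medians of 0.03 in the middle and -0.01 late.

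Of 12 pocket proteins and E2F factors, the proteins downstream of the G1 kinases, all were tested and 1 was lower in the middle window. It was E2F6, a repressor of the family, at -0.66 ± 0.15 (limma adjusted p = 0.0386), and its call was lost without the pair of 4, 8, 16, 24 or 32 h (0.0753 to 0.285). In the middle window 7.83% of all genes were called. Late, 5 of the 12 were lower, 0 were higher, and the list's median was -0.56, against 12.6% of all genes lower and 16.4% higher. E2F8, a repressor, was -1.45 ± 0.39 (adjusted p = 0.0264), E2F5 -1.39 ± 0.30 (0.0114) and RBL1, the pocket protein p107, -1.29 ± 0.31 (0.0162). The other 2, named after their values were seen, were E2F3 at -0.65 ± 0.21 (limma adjusted p = 0.0485) and E2F1 at -0.58 ± 0.09 (0.00295). Without the 72 h pair E2F8 was -0.45 (0.168), RBL1 -0.51 (0.0674) and E2F3 was -0.18 (0.468), all 3 no longer called, and E2F5 was -0.63, still called.

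Among 7 E and A cyclins and activators of cyclin-dependent kinases, 0 were called in the middle window and 3 were lower late, against 12.6% of all genes. CCNA2, cyclin A, was -1.47 ± 0.36 (limma adjusted p = 0.0184), from -2.39 at 72 h and -0.56 at 120 h. CDK7 and CCNH, which form the kinase that activates the others, were -0.67 ± 0.11 (limma adjusted p = 0.00401) and -0.50 ± 0.10 (0.00878). Without the 72 h pair CCNA2 was -0.56 (0.0974) and CCNH -0.37 (0.0616). Of 7 ubiquitin ligase parts that act on G1 proteins, 0 were called in the middle window and 2 late, against 29.1% of all genes. FBXW7, which marks cyclin E for destruction, was 0.80 ± 0.12 higher (limma adjusted p = 0.00279), and CKS1B, a cofactor for the breakdown of CDKN1B, was -1.39 ± 0.26 (0.00643). Leaving out 1 late pair or the other moved CKS1B between -2.06 and -0.73 and FBXW7 between 0.63 and 0.97.

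Of 15 other cyclin-dependent kinases, 14 were tested. In the middle window 1 was lower, against 4.36% of all genes, and the median was 0.06. That 1 was CDK8, a kinase of the Mediator complex, with ratios, from 4 to 120 h, of 0.07, -0.28, -0.90, -1.28, -1.73, -1.59 and -0.85. Its middle value was -1.30 ± 0.18 (limma adjusted p = 0.00767) and its late value -1.22 ± 0.22 (0.00521). Without the 24 h or the 32 h pair the middle call was lost (0.092 and 0.0791). Late, 3 were lower, CDK1, CDK8 and CDK7, and 2 higher, CDK13 and, named after its value was seen, CDK5, against 12.6% of all genes lower and 16.4% higher. CDK1, the kinase of mitosis, was -1.81 ± 0.33 late (limma adjusted p = 0.00543). Its ratio lay between -0.16 and 0.30 up to 32 h and was -2.69 at 72 h and -0.92 at 120 h. CDK13 at 0.59 ± 0.14 (adjusted p = 0.0177) was 0.08 (0.448) with the mean of its probe sets and 0.38 (0.111) without the 120 h pair, and CDK5 was 0.36 ± 0.10 (0.0341), not called without the 72 h pair (0.0991) or the 120 h pair (0.0788).

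Of 20 S-phase genes driven by E2F, 19 were tested, with 0 called and a median of -0.07 in the middle window, and late 9 called lower, 0 called higher and a median of -0.81. The other 10 did not pass late, where 12.6% of all genes were lower and 16.4% higher. Of the 9, 5 were called without the 72 h pair. RRM2, a subunit of ribonucleotide reductase, was -1.72 ± 0.40 (limma adjusted p = 0.0149), from -2.78 at 72 h and -0.66 at 120 h. MCM7, part of the replicative helicase, was -1.37 ± 0.28 (0.00894) and CDT1, which loads that helicase, -1.13 ± 0.13 (0.000973). The value of MCM7 was -0.65 without the 72 h pair and -2.09 without the 120 h pair. CCNA2 is counted in this list too.

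**Figure D5:**
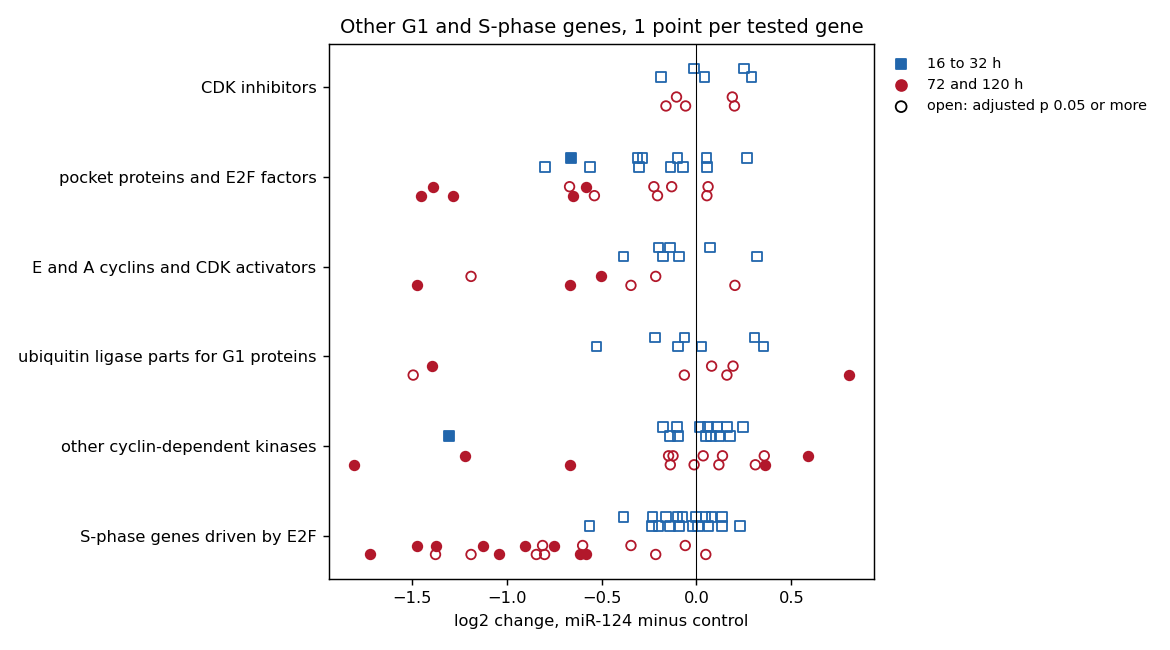
log2 change with miR-124 for each tested gene of 6 lists of G1 and S-phase genes, squares for the middle window (16 to 32 h) and circles for the late window (72 and 120 h), filled where the limma adjusted p is under 0.05. Filled squares are E2F6 at -0.66 and CDK8 at -1.30, and the S-phase list has 0 filled squares and 9 filled circles.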

How the data were processed

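Total RNA of 14 HepG2 samples was labelled from about 10 µg per array, per the labels' protocols. RMA, a method for background correction, normalization and probe set summary, made the deposited log2 values, per the submitters' processing notes. Its version is not given in the sources used here. It equalises the arrays' distributions, which hides any change in total messenger RNA. The number of arrays limits the precision. Of the probe sets, 41091 had 1 gene symbol, 1801 several and 11721 none, besides 62 controls, and 41037 matched RefSeq. Members and gene lists were chosen with earlier results of these data known, and so was the comparison of CDK4 with the other members.

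Tests used limma 3.58.1 in R 4.3.3 (lmFit and eBayes, two-sided, Benjamini-Hochberg over all genes, adjusted p under 0.05). They were tried on simulated arrays whose shifts were the same at all 7 times. That trial does not cover effects that change with time, as the ratios of CDK4 did. The overall fit had time as a block (6 residual degrees of freedom), the windows shared 1 fit (4), and slopes used 7 arrays (5). Errors marked ± are standard errors. Arrays of 1 time were paired by their labels, and deviations from the group means correlated at 0.206 to 0.480 in the 7 pairs. In each list up to 4 genes were named, those with the largest overall change among genes called, and for CDK4 and CDK6 the 5 nearest ratio profiles. Alternatives were other uses of a gene's probe sets, no filter on low values, centring, no block, windows fitted alone and each pair left out. Promoters are from RefSeq, with 7 promoters for 4 of the 7 genes.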

Additional observations from a re-analysis of the deposited data

Results flagged for a closer look

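The control level of CDK4 at 120 h, 10.65, was its lowest of 7 and stood apart from the other 6 by 0.576 of the whole range, against a critical value of 0.568. The CDK4 ratio of -0.96 at 120 h uses that array. The CCND1 ratio at 120 h, 0.36, was the highest of 7 and stood apart by 0.709 of the range. Across 21 such sets of 7 values examined (levels of each gene in both arms and its ratio), chance alone marks about 1 in 20. CDK6 had a larger loss late than early, by -0.73 ± 0.17 (limma adjusted p = 0.0339), a difference between windows that was tested in the fit itself. That call was lost without the 4, 8, 24 or 72 h pair, with the mean of its probe sets and with no replicate block. Late minus early, CDK2 at -1.21 ± 0.39 and CDK4 at -1.01 ± 0.52 had larger differences with larger errors and were not called.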

How the results depend on the processing

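Among values of single genes under all alternatives, 831 kept their direction and side of the threshold, 88 lost a call, 19 gained one, and 26 changed sign with no call. Fitted on its own arrays, the late window had 469 genes and 0 members called, and the middle window 2164 genes. With every probe set a feature, genes called were 323 over all pairs, 1749 in the middle window, 8119 late, 3008 late minus early, 1256 late minus middle, 1772 for the control slope and 5304 for the miR-124 slope. In the fit over all pairs, centring each array gave 1 gene and 0 members, the mean of probe sets 0 and 0, and no filter 1 and 0. Probe sets without _s_at or _x_at gave 1 member. CDK4 and CCND2, which have only _s_at probe sets, were not tested in that setting. The unpaired fit, with no replicate block, called 328 genes over all pairs, and late minus early it lost CDK6. It changed no other member's call.

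With each pair left out in turn, members called ranged from 0 to 4 over all pairs and from 0 to 4 in the middle window. Genes called ranged from 0 to 974 over all pairs, 0 to 2198 in the middle window, 0 to 264 middle minus early, 203 to 3719 late minus early and 78 to 2369 late minus middle. For slopes they ranged from 229 to 1112 in the control and 1044 to 3205 with miR-124. The CDK4 ratio minus that of CDK2 stayed between -0.59 and -0.45. The causes were not tested, apart from the fewer arrays or features an alternative holds. CDK4 has no probe set outside _s_at, so its comparison with the others was not run there.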

Other observations

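The genes beside CDK4 on chromosome 12 did not share its loss, apart from 1. In RefSeq order, the 4 protein-coding genes on each side were B4GALNT1, OS9, AGAP2 and TSPAN31, and MARCHF9, CYP27B1, METTL1 and EEF1AKMT3. They were chosen by position, after the values of CDK4 were known. CYP27B1 was not among the genes tested. In the middle window 7.83% of all genes were called, and CDK4 was -2.32 ± 0.30. The 1 neighbour called there was EEF1AKMT3 at -0.86 ± 0.11 (limma adjusted p = 0.00616). It is also the gene with the ratios most like those of CDK6. TSPAN31, the nearest neighbour, was at 0.17 ± 0.12 (limma adjusted p = 0.51) in the middle window and at 0.38 ± 0.14 (0.0836) late. Late, limma called MARCHF9 higher at 0.50 ± 0.15 (0.0443) and B4GALNT1 higher at 0.33 ± 0.09 (0.0346), and EEF1AKMT3 lower at -0.80 ± 0.13 (0.00409). In that window 29.1% of all genes were called, 16.4% higher and 12.6% lower. The calls of the neighbours were not followed under the alternatives.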
